A study of Rattus norvegicus with 98 samples.

Results

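Nasal epithelium of 20 rats that inhaled 0.7 ppm formaldehyde, the lowest dose of the study, was compared with that of 21 rats that breathed air, pooled over 5 harvest times with time kept as a block. The 20 arrays were every array whose title names formaldehyde inhalation at that dose, out of 98 arrays in the series, and 31042 probe sets were tested on each. The arrays were taken by title, array set and harvest time. The animals were male F344/NCrl rats, 8 weeks old at exposure, exposed whole-body in daily sessions of 6 h, 5 days a week. Rats were killed 6 h and 24 h after exposure began, by the stated schedule after a single session. Others were killed at 5, 8 and 19 days, after repeated sessions. The 8-day groups are labelled but are not named in the design text of the series. Each time had 4 exposed animals, and the air groups had 4 animals at every time except 8 days, which had 5. The air animals at 6 h were those of the first array set. A further 4 air arrays at 6 h belonged to a later array set and served the 15 ppm animals. Air animals were labelled as inhaling 0 ppm. Each array held the RNA of 1 animal.

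The level II region of both nostrils was dissected, the maxilloturbinate and the olfactory epithelium were discarded per the labels, and cells were freed from the lateral meatus and nasoturbinate with proteases. The labels describe the yield as chiefly transitional epithelium with some respiratory epithelium. Of the epithelial markers, Krt5, a keratin of basal cells, had a median log2 signal of 11.98 over the 41 arrays, against 6.04 for the median probe set. Bpifa1, a secreted protein of airway epithelium, stood at 14.57 and Foxj1, the master factor of ciliated cells, at 9.67. Scgb1a1, a secretory cell protein of the airway, was below the median probe set at 5.39. Omp, which marks mature olfactory neurons, ranged from 11.22 to 13.34 although that epithelium had been set aside. At 8 days the treatment field reads 0.07 ppm while title and description give 0.7 ppm, and the title was followed. Array medians ran from 5.993 to 6.074. The exposed animal with the lowest median correlation to the other arrays, 0.9771, was 1 of the 8-day group. RNA integrity numbers had a median of 8.3 on 16 exposed arrays and 8.2 on 20 air arrays.

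Formaldehyde is a reactive, water-soluble gas that is largely absorbed in the nose, where it crosslinks proteins and DNA. Cells dispose of it mainly through Adh5, which oxidises its glutathione adduct, and Aldh2, a mitochondrial aldehyde dehydrogenase. Electrophiles of this kind release the transcription factor Nrf2, which switches on antioxidant genes, and tissue irritation brings growth factor ligands and chemokines. The circadian clock, which appears below, is a feedback loop. Bmal1 pairs with Clock or Npas2 and drives Per, Cry and Rev-erb genes through E-boxes, Per and Cry proteins repress that pair, and Rev-erb and Ror proteins act on Bmal1 through ROR elements. Dbp, Tef and Hlf are outputs of the same loop that bind D-boxes.

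Pooled over the 5 times, 0.7 ppm changed no probe set at an adjusted p under 0.05, 0 of 31042 tested (0% called; limma, Benjamini-Hochberg adjustment over all probe sets, two-sided). The smallest adjusted p was 0.373. At an unadjusted p under 0.05 there were 1162 probe sets, 3.74% of those tested, of which 648 (2.09%) were higher and 514 (1.66%) lower after exposure. The median difference over all probe sets was 0.0017 on the log2 scale, and the median 95% interval reached 0.0956 either side of the estimate. For 30783 probe sets, or 99.17%, the whole interval lay within a 1.5-fold change in either direction, and for 29240, or 94.19%, within 1.25-fold. Counted by genes, with the probe set of highest mean signal standing for each, 14038 of 14217 genes had an interval within 1.5-fold and 179 did not. These animals are separate individuals, so the p-values refer to the spread between rats. Anything besides dose that set exposed animals apart from air at all times is not part of that spread.

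Among probe sets with a gene name, the pooled ranking was led by genes of the circadian clock. Bmal1, Npas2 and Per2 were among the 6 probe sets with the smallest p, all at an adjusted p of 0.373 by limma, and none passed the threshold. Bmal1 (probe set 1370510_a_at), the positive arm of the loop, differed from air by -0.25 ± 0.06 (log2, SE), a level 1.19-fold lower. Npas2 (1383439_at), which can take the place of Clock beside Bmal1, differed by -0.30 ± 0.07, or 1.23-fold lower. Per2 (1368303_at), a repressor of that pair, was higher by 0.27 ± 0.06, or 1.20-fold.

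Promoter stretches of Per2, Tef and Bmal1 are shown as 3 examples from the 7 clock genes that carry letters of the elements through which the loop is known to act. They were taken from RefSeq's table for the rat assembly GRCr8, read 5′ to 3′ on the gene's strand and end at or before the last base upstream of the start, and capitals mark the matches. The Per2 stretch, chr9:99497044-99497193 on the minus strand, covers bases 200 to 51 before the start and holds a D-box at 192 bases and a CACGTT E-box-like element at 62 bases before it.
Per2: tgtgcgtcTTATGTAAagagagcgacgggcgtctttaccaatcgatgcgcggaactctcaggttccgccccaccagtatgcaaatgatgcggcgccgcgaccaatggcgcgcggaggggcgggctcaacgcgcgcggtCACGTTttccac
The Tef stretch, chr7:115206607-115206656 on the plus strand, covers bases 220 to 171 before the start and holds a CACGTG E-box at 198 bases before it.
Tef: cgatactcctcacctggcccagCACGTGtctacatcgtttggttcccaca
The Bmal1 stretch, chr1:176766268-176766327 on the plus strand, covers the last 60 bases before the start and holds a ROR element, TAGGTCA, at 16 bases before it.
Bmal1: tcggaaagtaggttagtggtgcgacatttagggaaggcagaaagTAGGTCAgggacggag
The motifs searched, on both strands, in the 250 bases before the start were CACGTG (E-box), CACGTT (E-box-like), TTATGTAA, TTACGTAA or TTATGCAA (D-box), and TAGGTCA or TGGGTCA (ROR element), and no match overlapped another. Of the 19 measured clock genes, 16 had a promoter in the table, and 7 of these held at least 1 motif. Npas2 and Dbp were among the 9 that held none. E-boxes occurred in Tef, Nr1d1, Bhlhe40 and Bhlhe41, 4 of 16 genes, against 5.59% of all 33469 promoter windows. E-box-like letters occurred in Per2, Cry2 and Nr1d1, against 4.07% of windows. The D-box was found in Per2 alone of the 16 genes, against 1.7% of windows, and the ROR element in Bmal1 alone, against 5.62%. A match is a string of letters and was not tested as a binding site.

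Bmal1 had a lower mean in exposed than in air animals at all 5 times. At 6 h the exposed animals had log2 signals of 6.35, 6.40, 6.48 and 6.52 and the air animals 6.38, 6.57, 6.79 and 6.99. At 24 h they had 8.21, 8.30, 8.45 and 8.48 against 8.38, 8.61, 8.65 and 8.75. At 5 days the values were 6.19, 6.51, 6.54 and 6.61 against 6.55, 6.67, 6.84 and 7.07. The exposed values sat at the low end and overlapped the air range at each of these times. At 8 days the exposed animals were at 6.11, 6.12, 6.19 and 6.57 and the 5 air animals between 6.46 and 6.65, and at 19 days at 6.21, 6.52, 6.65 and 6.81 against 6.46, 6.69, 6.72 and 7.01. The ranges overlapped there too, and over all times 18 of 20 exposed animals lay below the air mean of their own time. The differences by time were -0.24, -0.24, -0.32, -0.28 and -0.17 in time order, and none passed the test at its own time.

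Per2 differed most at 8 days. There the 4 exposed animals had 9.0, 9.09, 9.31 and 9.32 and the 5 air animals 8.37, 8.50, 8.63, 8.76 and 8.81, so the groups did not overlap. At 6 h the exposed animals were at 8.75, 8.77, 8.82 and 8.87, while 3 air animals were at 8.34, 8.34 and 8.35 and the fourth reached 8.75. At 24 h the exposed values, 8.04 to 8.20, lay inside the air range of 7.96 to 8.31. Over all times 16 of the 20 exposed animals were above the air mean of their time, and the differences were 0.36, -0.03, 0.31, 0.57 and 0.10 in time order. Another probe set for Per2, with lower signal, had a pooled difference of 0.06, so the 2 probe sets gave different sizes.

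Npas2 separated the groups completely at 5 days, with exposed values of 6.13, 6.41, 6.43 and 6.60 below air values of 6.91, 6.93, 6.98 and 7.05. At 19 days its exposed range, 6.068 to 6.594, contained the whole air range, 6.211 to 6.478. The difference ran from -0.58 at 5 days to 0.01 at 19 days, and 18 of 20 exposed animals were below their air mean. Dbp, a clock output, also separated at 6 h, where exposed animals had 9.43, 9.56, 9.62 and 9.67 and air animals 9.10, 9.14, 9.38 and 9.39. The later air group at 6 h, outside this comparison, ran from 9.36 to 9.75 for Dbp and so covered all these exposed values. The exposed and air ranges of Dbp overlapped at the other 4 times. The differences of Dbp were 0.32, -0.08, 0.53, 0.24 and 0.02 in time order.

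**Figure D1:**
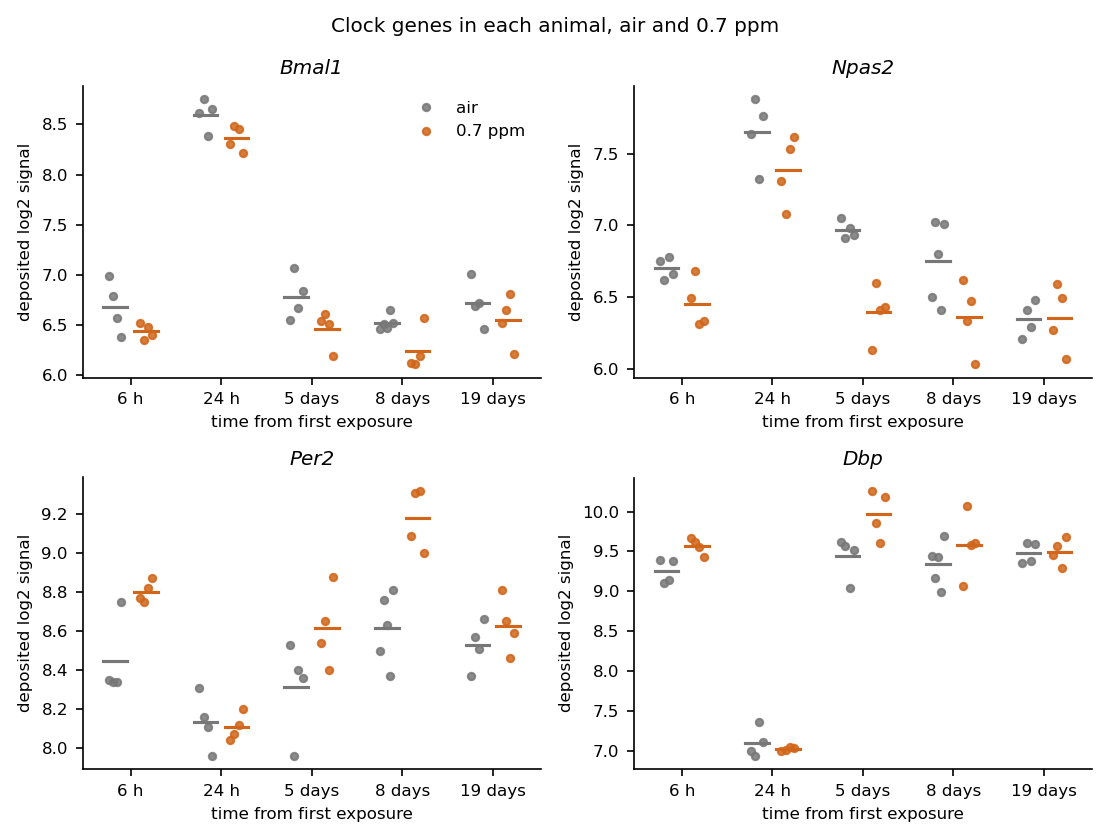
Deposited log2 signal of Bmal1, Npas2, Per2 and Dbp in every air animal (grey) and every 0.7 ppm animal (orange) at each harvest time; short lines are group means, with 4 animals a group and 5 for air at 8 days. Bmal1 means are lower in exposed animals at all 5 times, and the 24 h animals of both groups sit far from the rest, with Bmal1 high and Dbp low.

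Clock genes were described as 2 lists. Of the repressors and outputs, 11 of 12 were measured, 0 passed the adjusted threshold, and 7 were higher at an unadjusted p under 0.05 (Per1, Per2, Cry2, Nr1d2, Dbp, Tef and Wee1) with none lower, beside 2.09% of all probe sets higher at that level. Their median difference was 0.14, against 0.0017 for all probe sets. Tef differed by 0.21 ± 0.05, Wee1, a kinase that delays mitosis, by 0.21 ± 0.07 and Nr1d2, a Rev-erb receptor, by 0.14 ± 0.05. Per3 and Nr1d1 were near zero, at -0.01 and 0.05. Of the activators and their partners, 8 of 9 were measured, 0 passed, and Bmal1 and Npas2 were lower and Bhlhe41 higher at an unadjusted p under 0.05, with a list median of -0.07. Bhlhe41, which binds E-boxes as a repressor, differed by 0.19 ± 0.08. The list that holds it, and its median, are therefore not of activators alone. The probe set that stands for Clock gave -0.07 ± 0.05, while another of its 4 probe sets gave -0.18 (adjusted p = 0.523 by limma). No other pathway list had more than 2 members past an unadjusted 0.05.

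The levels of these genes also differed between groups that breathed air. Bmal1 averaged 8.60 ± 0.15 (SD, n = 4) in air animals at 24 h and 6.52 to 6.78 in the air groups of the first array set at the other times, and Dbp averaged 7.10 ± 0.18 at 24 h against 9.25 to 9.48 in those groups. At 6 h the later air group had a Per2 mean of 9.09 ± 0.26 (SD, n = 4), against 8.44 ± 0.21 in the first air group and 8.80 ± 0.05 in the 0.7 ppm group. Its Nr1d2 mean was 10.05 ± 0.20, against 9.52 ± 0.15 and 9.78 ± 0.03. The gap between the 2 air groups was thus wider than the 0.7 ppm difference for Per2 and Nr1d2, and for Bmal1 the later air mean, 6.59 ± 0.19, lay between the other means, 6.68 ± 0.26 and 6.44 ± 0.08. Later air means of Dbp, Tef and Wee1 were 9.545, 8.252 and 8.419. The first air group had 9.254, 7.99 and 8.004 and the 0.7 ppm group 9.57, 8.29 and 8.35. For Npas2 the later air mean, 6.932, was further from the 0.7 ppm mean of 6.454 than the first air mean of 6.7. These 2 air groups differ in array set as well, and the array set and the group cannot be told apart. With the later air arrays added the pooled differences were 0.19 for Per2, 0.08 for Nr1d2 and -0.24 for Bmal1. The hour of the day at harvest is not among the labels, and its part in the result was not tested.

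The same clock genes were compared at the higher doses, which use the same 21 air arrays, so the differences from air at 0.7, 2 and 6 ppm are not independent of each other. In one fit of the 82 arrays of the first set, 55 probe sets passed at 2 ppm (0.177%) and 1914 at 6 ppm (6.17%). Bmal1 fell at both, with differences of -0.41 and -0.51, and Per2 rose at both, with 0.44 and 0.37 (limma adjusted p = 0.000742 and 0.000825). The deviations of single animals from the air mean of their time had medians for Bmal1 of -0.26 at 0.7 ppm, -0.42 at 2 ppm and -0.50 at 6 ppm, and 2 of 20, 1 of 21 and 0 of 20 animals were above zero. The direct difference of 6 ppm minus 0.7 ppm was -0.27 ± 0.07 for Bmal1 (limma adjusted p = 0.0097) and 0.11 ± 0.08 for Per2, which did not pass. At 15 ppm after 6 h, against the later air group, Bmal1 at -0.18 and Npas2 at -0.60 had the same sign as at 0.7 ppm. Per2 differed by -0.31 and Dbp by -0.71, opposite in sign to 0.7 ppm, but for Per2 the sign depended on the air group. The Per2 mean at 15 ppm was 8.785, beside 9.093 in the later and 8.443 in the first air group. At 0.7 ppm after 6 h the Per2 mean was 8.801.

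The genes that answer irritant doses were examined next. Hmox1, which degrades haem and is a standard Nrf2 target, had a pooled difference of 0.11 ± 0.09 at 0.7 ppm. Its values at 6 h were 7.67, 7.90, 7.97 and 8.21 in exposed animals and 7.52, 7.57, 7.68 and 7.72 in air, where the ranges just overlapped. At 5 days they were 7.66, 7.89, 7.94 and 8.26 against 7.26, 7.44, 7.50 and 7.77. At 19 days the order turned, with 7.54, 7.62, 7.94 and 8.03 against 7.75, 7.81, 7.82 and 8.41. The differences by time were 0.32, 0.02, 0.44, -0.07 and -0.17, and none passed the test. Srxn1, which reduces oxidised peroxiredoxins, differed by -0.01 ± 0.08 over all times, with a 95% interval from 0.89-fold to 1.11-fold. Its exposed and air ranges overlapped at every time. Another probe set for Srxn1, with lower signal, had a pooled difference of -0.16 with an interval of -0.33 to 0.02.

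**Figure D2:**
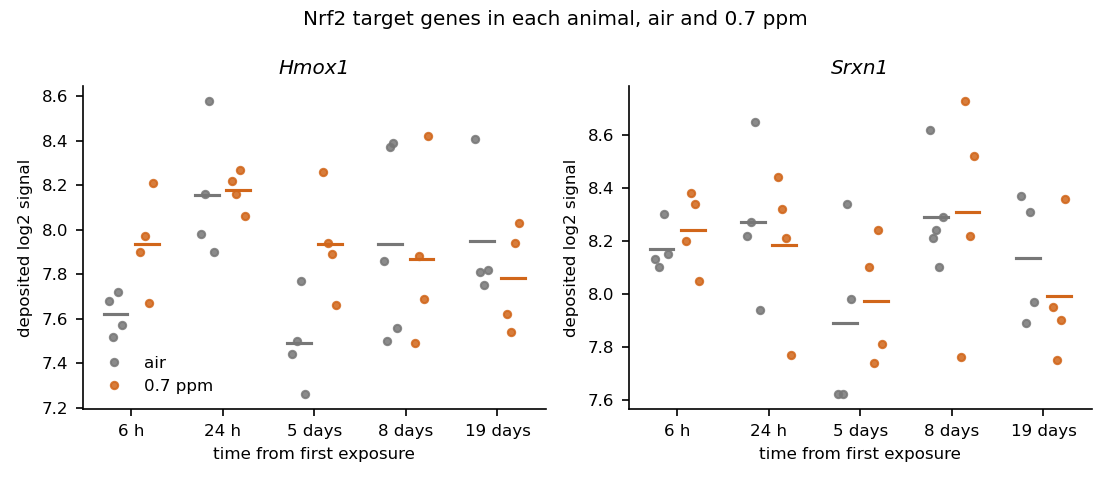
Deposited log2 signal of Hmox1 and Srxn1 in every air animal (grey) and every 0.7 ppm animal (orange) at each harvest time, with group means as short lines. Hmox1 means are higher after exposure by 0.32 at 6 h and 0.44 at 5 days and differ by -0.17 at 19 days, and the widest difference between Srxn1 means is -0.15, at 19 days.

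Of 24 listed Nrf2 targets 20 were measured, and none was past even an unadjusted 0.05 at 0.7 ppm, in either direction. Their median difference was 0.04 and all 20 intervals lay within 1.5-fold, with outer ends at -0.50 for Gsr and 0.47 for Slc7a11. Slc7a11, the cystine importer that feeds glutathione synthesis, differed by 0.16 ± 0.15 and Txnrd1, thioredoxin reductase, by 0.01 ± 0.05. At 6 ppm 11 of the 20 were called higher than air, as were 2.82% of all probe sets. The difference of 6 ppm minus 0.7 ppm, in which the air animals cancel, was called for 11 of them as well.

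Across the whole array, 387 probe sets were higher at 6 ppm than at 0.7 ppm (1.25%) and 756 lower (2.44%) at an adjusted p under 0.05 by limma. Only 18 and 3 of them differed by more than 1.5-fold. The largest difference belonged to Srxn1, at 1.30 ± 0.14, or 2.46-fold. Every one of the 20 animals at 6 ppm had Srxn1 above the air mean of its time, with a median deviation of 1.34 and a range of 0.02 to 2.66, while at 0.7 ppm 10 of 20 were above it, with a median of -0.02 and a range of -0.54 to 0.44. Among genes, each read from its probe set of highest mean signal, Tnfrsf12a, the receptor for the cytokine Tweak, followed with 1.09 ± 0.10. Maff, a small Maf partner of Nrf2, had 1.09 ± 0.13 and Hmox1 1.05 ± 0.14. Plaur, the urokinase receptor, had 0.98, Areg, an EGF receptor ligand, 0.89 and Fosl1, an AP-1 subunit, 0.75. Read in the same way, the genes lowest at 6 ppm relative to 0.7 ppm were Ooep at -0.69 ± 0.11 and Alox12, a lipoxygenase, at -0.57. Tnfsf10, the death ligand Trail, had -0.56 and Chodl, a membrane lectin, -0.52. Probe sets that do not stand for a gene were left out of this ranking. Ooep itself stood at -0.19 ± 0.08 at 0.7 ppm against air, without passing the test.

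**Figure D3:**
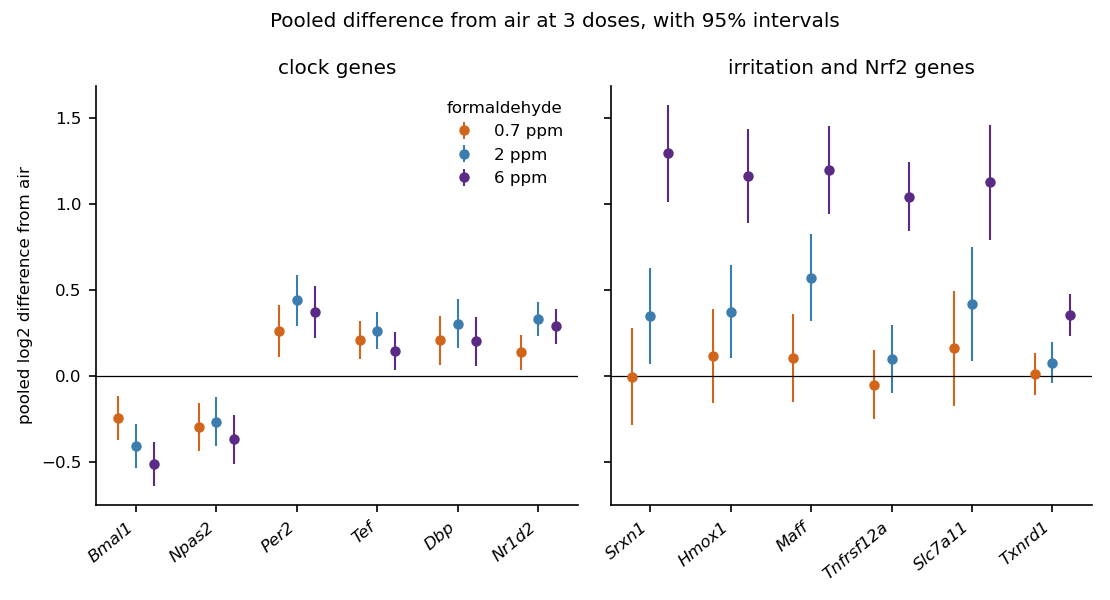
Pooled log2 difference from air at 0.7, 2 and 6 ppm (points) with 95% intervals (bars), from a single fit of 82 arrays that share the 21 air arrays, for 6 clock genes (left) and 6 irritation and Nrf2 genes (right). On the right the 6 ppm point is the highest for each gene, with Srxn1 at 1.30, and Maff is at 0.57 at 2 ppm, whereas on the left Bmal1 is at -0.25, -0.41 and -0.51.

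Between 2 ppm and 0.7 ppm 12 probe sets differed (0.0387%), 2 higher and 10 lower at 2 ppm, with differences from -0.23 for Nudt18 to 0.20 for Mtfr1. Coq5, a methyltransferase of ubiquinone synthesis, had -0.22 ± 0.04 (limma adjusted p = 0.0015) and Serinc1, a membrane serine incorporator, 0.19 (adjusted p = 0.0046). Ubfd1 and Rnaseh2a, a subunit of ribonuclease H2, were also lower at 2 ppm. Leaving out single animals gave between 2 and 32 called probe sets, and Coq5 and Serinc1 were called in all 41 such fits. None of the Nrf2 targets was among them.

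A set of genes was then taken from animals that the 0.7 ppm comparison does not use, the 4 rats at 15 ppm for 6 h and the 4 later air rats. There 146 probe sets were called higher by at least 2-fold (0.47%) and 22 lower (0.0709%). At 0.7 ppm the 146 had a median pooled difference of -0.02, from -0.54 to 0.26, 0 were called, 2 were higher and 1 lower at an unadjusted p under 0.05, and 143 had an interval within 1.5-fold. At 2 ppm their median was 0.04 with 3 called higher, against 0.0805% of all probe sets. At 6 ppm it was 0.10 with 36 called higher and 1 lower, against 2.82% of all probe sets called higher. The 22 had a median of -0.05 at 0.7 ppm and -0.31 at 6 ppm. Areg was 4.85 higher at 15 ppm and 0.00 ± 0.18 at 0.7 ppm, Plaur 3.55 and -0.06, and Tnfrsf12a 3.55 and -0.06. Egr2, an immediate early factor, was the member furthest up at 0.7 ppm at 0.26 ± 0.11, from -0.21 at 6 h to 0.51 at 19 days. Cxcl1, a neutrophil chemokine, was 3.31 higher at 15 ppm and differed by -0.36 ± 0.19 at 0.7 ppm. Over all probe sets the 15 ppm difference correlated with the pooled difference at r = 0.0385 for 0.7 ppm, 0.161 for 2 ppm and 0.40 for 6 ppm, a description across 31042 probe sets that are not independent.

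**Figure D4:**
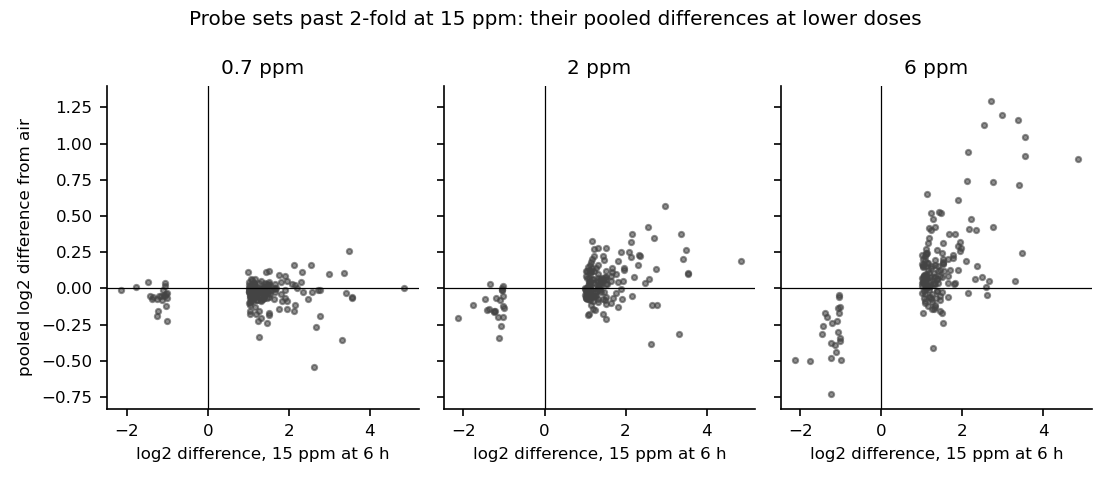
Each point is 1 of the 168 probe sets that differed at least 2-fold at 15 ppm after 6 h, with its log2 difference there on the x axis and its pooled log2 difference from air at 0.7, 2 or 6 ppm on the y axis. At 0.7 ppm the 146 probe sets higher at 15 ppm centre on -0.02, at 6 ppm on 0.10.

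Enzymes that clear formaldehyde differed little. Of 23 listed genes of formaldehyde and aldehyde metabolism 22 were measured, none was past an unadjusted 0.05, and all 22 intervals lay within 1.5-fold. Adh5 had 0.04 ± 0.06, Esd, which hydrolyses S-formylglutathione, 0.00 ± 0.03, and Aldh2 -0.03 ± 0.05. For DNA crosslink repair, 17 of 22 genes were measured and none was past 0.05. Sprtn, a protease that removes proteins crosslinked to DNA, had 0.07 ± 0.04. Of 14 measured p53 targets Tp53inp1 alone was past an unadjusted 0.05, at -0.15, and Cdkn1a, the cell cycle inhibitor p21, had -0.13 ± 0.08. None of the 30 measured genes of cell cycle and replication was past it, with Mki67, a proliferation marker, at 0.01 ± 0.09.

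Inflammatory mediators were measured for 25 of 25 genes and had a median of -0.07, with 2 of 25 estimates above zero. Of all 31042 probe sets, 16002 had an estimate above zero. Of the mediators only Cxcl6 was past an unadjusted 0.05, at -0.27 ± 0.13. For 20 of 25 the interval lay within 1.5-fold, and for 5 it reached past that limit. Cxcl1 and Ccl2, a monocyte chemokine, had differences of -1.06 and -1.03 at 8 days and 0.35 and 0.13 at 5 days. Glucocorticoid responsive genes gave 2 of 13 higher at an unadjusted p under 0.05, beside 2.09% of all probe sets. These were Per1, which the clock lists also hold, and Sgk1, a kinase that acts on sodium transport. Sgk1 differed by 0.28 ± 0.11, with 0.70 at 6 h and 0.75 at 8 days but -0.21 at 24 h. Mitochondrial respiration genes had 17 of 18 estimates above zero with a median of 0.04, and Ndufs1, a complex I subunit, was the single member past 0.05, at 0.08 ± 0.04.

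Outside the lists, the pooled ranking held Rassf6, a Ras association domain protein, at -0.23 ± 0.06 and -0.13 to -0.28 at each of the 5 times, with 18 of 20 exposed animals below their air mean. Stat3, a transcription factor downstream of cytokine receptors, had -0.18 ± 0.05 and -0.13 to -0.23 by time. Chka, choline kinase, had -0.20 ± 0.06. Among genes with higher values Zfp212 had 0.15 ± 0.04 and 18 of 20 animals above their air mean, as had Epha6 at 0.13. Over the alternative fits and any other probe sets of the same gene, Stat3 ran from -0.28 to -0.03 and Zfp212 from 0.04 to 0.18. Fabp12, Arr3, Epha6 and Cryaa had mean log2 signals of 4.04 to 4.95, under the median of 6.04. All of these had an adjusted p of 1 by limma. Of all probe sets, 1723 (5.55%) had the same sign at all 5 times.

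The effect of 0.7 ppm was not shown to change with time. The interaction of dose with time was called for 0 of 31042 probe sets by limma (1127 at an unadjusted p under 0.05, smallest adjusted p 0.135), and so was the difference of repeated minus single exposure (0 called, 964 at 0.05). The smallest interaction p belonged to Ccn2, connective tissue growth factor, with differences of 0.72, -0.54, 0.10, 0.49 and -0.12 in time order. Tsc22d3, a glucocorticoid-induced leucine zipper protein, had 0.61, -0.43, -0.04, 0.62 and -0.23. For repeated minus single exposure the genes with the smallest p included Clcn7, a lysosomal chloride transporter, at 0.40 and Barx1 at 0.28. They also included Vegfd, a lymphatic growth factor, at -0.34 and Vtn, vitronectin, at -0.43. Leaving out exposed animal 138 of 5 days, exposed animal 154 of 19 days or air animal 58 of 24 h gave 1, 1 and 2 calls for the interaction. Across probe sets the differences at pairs of times correlated between -0.20 (24 h with 5 days) and 0.44 (6 h with 5 days).

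At single times, with the spread taken from all 98 arrays in 24 groups, limma called 0 probe sets at 6 h, 24 h, 8 days and 19 days, with 409, 1889, 1021 and 818 at an unadjusted p under 0.05. At 5 days 2 were called lower (0.00644%; 762 at 0.05). Myoz1, a Z-disc protein of fast muscle fibres, had -1.36 ± 0.27 and a probe set of Tpm2, a tropomyosin, had -1.27 ± 0.25, both with an adjusted p of 0.0434. Exposed animals had Myoz1 values of 4.31, 4.31, 4.38 and 4.51 and air animals 4.48, 5.09, 6.57 and 6.81, so a pair of air animals set the difference. The probe set of Tpm2 with the highest signal, which stands for the gene elsewhere, differed by -0.11 at 5 days. Without air animal 63, 25 probe sets were called at 5 days, among them Ckm, Tnni2, Mb and Acta1, and without any 1 of exposed animals 137 to 140 or of air animals 60 and 61 none was called.

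Of the 13 cell type lists, skeletal muscle had the median farthest from zero. Of 14 measured genes 10 were lower in exposed animals at an unadjusted p under 0.05 (background 1.66% lower), 0 were called, and the median was -0.54. Ckm, muscle creatine kinase, had -1.21 ± 0.34, Acta1, skeletal actin, -1.91 ± 0.60 and Myl1, a myosin light chain, -1.78 ± 0.55. At 24 h the differences of Acta1 and Myl1 were positive, 0.89 and 0.94. The mean level of the 14 genes had a median of 5.28 in exposed animals, from 5.17 to 6.84, and 6.25 in air animals, from 5.10 to 7.99. At 5 days the air animals had 5.13, 6.61, 7.93 and 7.99 and the exposed animals 5.17, 5.19, 5.22 and 5.71. The medians at 2 and 6 ppm were 5.84 and 5.72. In bulk tissue fewer cells of a type and less RNA per cell cannot be told apart. With that mean level as a covariate no probe set was called at 5 days, and 1 was called in the pooled comparison, a probe set with no gene name in the annotation used here. The part of this muscle signal in the clock result was not tested beyond that fit, in which Per2 had 0.21.

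**Figure D5:**
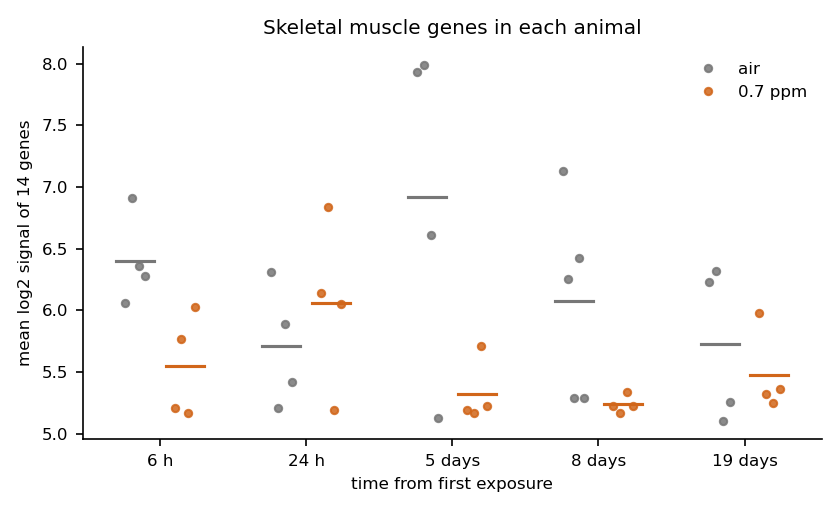
Mean log2 signal of 14 skeletal muscle genes in every air animal (grey) and every 0.7 ppm animal (orange) at each harvest time, with group means as short lines. Air animals reach 7.99 at 5 days, while exposed animals stay between 5.17 and 6.84 over all times.

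Lists for other cell types were read in the same way. Of 12 measured ciliated cell genes none was past an unadjusted 0.05, with a median of -0.09, and Foxj1 had -0.12 ± 0.09. The mean level of the list ran from 7.27 to 8.99 in exposed and from 8.25 to 9.05 in air animals. Basal and squamous genes had a median of -0.07 with Krt5 at -0.01 ± 0.10, and only 10 of 17 intervals lay within 1.5-fold. By time their median was -0.53 at 24 h and 0.29 at 19 days. At 24 h the mean level of the list was 8.00, 8.38, 8.49 and 8.94 in exposed animals and 9.29, 9.49, 9.58 and 9.76 in air animals, and the groups did not overlap. Neutrophil, lymphocyte and macrophage lists gave none past 0.05, with medians of -0.04, -0.05 and 0.01. Col1a1 and Col1a2, the chains of type I collagen, had -0.25 ± 0.11 and -0.19 ± 0.09, and the bone genes Ibsp and Bglap -0.25 and -0.18, each past an unadjusted 0.05. Of 14 measured tuft cell and ionocyte genes, 7 had an estimate above zero, and the list median was -0.007. Only Chat, the acetylcholine-producing enzyme of tuft cells, was past an unadjusted 0.05 there, at 0.10 ± 0.04.

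Outside the muscle genes, some other genes had an interval with an end far from zero, so their difference was not closely bounded. Amelx, an enamel matrix protein, had 1.49 ± 0.63 with an interval of 0.22 to 2.76, and Ambn, another enamel protein, 0.86 with an interval of -0.13 to 1.84. Krtdap, a product of cornifying keratinocytes, had -0.89 with an interval of -2.15 to 0.37 and a difference of -4.63 at 24 h and 1.70 at 19 days. Muc5ac, a gel-forming mucin of goblet cells, had -0.76 with an interval of -1.56 to 0.04. These 4 were chosen after their values were seen.

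At 24 h, the time with the most probe sets at an unadjusted p under 0.05 (6.09% of all), the smallest adjusted p was 0.066. With every animal kept, 0 probe sets were called in this fit, 116 with array weights and 1 with the spread taken from the 41 arrays alone. Without exposed animal 134 there were 48, without air animal 57 there were 49, and without air animal 54 there were 8, nearly all of them lower in exposed animals. Sox10, Rab26, Fkbp11, Tmed3, Htr5b, Eif4ebp1 and a probe set with no gene name were called in all 3 of these fits. In the other 5 of the 8 fits that left out 1 animal of this time, 0 were called. Fkbp11, an endoplasmic reticulum isomerase of secretory cells, had between -1.06 and -1.05, Sox10, a transcription factor of glands and glia, between -1.01 and -0.95, and Rab26, a regulator of secretory granules, between -1.27 and -1.17. Bhlha15, which sets up secretory granules in gland cells, had -2.30 and -2.46 in 2 of the fits. These genes were chosen after their values were seen, and none passed at 24 h in the equal-weight fit of all animals. At the same time the basal and squamous list was lower in every exposed animal than in any air animal. The olfactory list had a median difference of 0.36 at 24 h and the secretory cell list -0.006. Their part in the result was not tested. At 8 days a probe set of Relt (-0.52) was called without air animal 65, and Per1 (0.80) without exposed animal 143, the array that correlated least with the rest.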

How the data were processed

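Gene expression was measured on Rat230_2 arrays, 1 animal each. The authors deposited log2 signals per probe set; background correction, summarisation and normalization are not given in the sources used here, so the values were kept as deposited. Control probe sets were left out. Gene symbols came from the platform annotation, updated through RefSeq gene identifiers. With limma 3.58.1 in R 4.3.3, the pooled comparison fitted time plus dose to 41 arrays, single times used 24 groups on 98 arrays, and dose differences used 82 arrays. P-values were two-sided and adjusted by Benjamini-Hochberg over 31042 probe sets. The arrays compared, the gene lists and the rule for named genes were chosen with earlier results of these data known. Named genes were those called, otherwise up to 12 with the smallest p in each direction as values, up to 4 per list, and a short list of response genes. A gene was read from the probe set with the highest mean. Scripts were tested on simulated data. Alternatives covered normalization, a dim-signal filter, the prior, array weights, the time block, air arrays, RNA integrity, and leaving out times or animals; a muscle covariate was added after seeing the data. Promoters came from RefSeq (GRCr8). The number of arrays limits the precision.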

Additional observations from a re-analysis of the deposited data

Results flagged for a closer look

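Among 210 groups of 4 or 5 animals checked for a value far from the others (20 genes given animal by animal, and the skeletal muscle list), 9 held one by Dixon's 95% criterion, about the share of 1 in 20 groups that chance gives. Air animal 53 at 6 h had a Per2 signal of 8.75, with the next at 8.35. Air animal 77 at 19 days had an Nr1d2 signal of 9.9, with the next at 9.68, and air animal 73 at 19 days a Hmox1 signal of 8.41, with the next at 7.82. Exposed animal 139 at 5 days was high for skeletal muscle genes, with Acta1 at 6.55, Myl1 at 6.38 and a list mean of 5.71. Exposed animal 152 at 19 days was high as well, with Acta1 at 7.36 and a list mean of 5.98. Exposed animal 131 at 6 h had the low Amelx signal of 9.71, with the next at 10.7.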

How the results depend on the processing

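No paired analysis was possible because every animal gave a single array at a single time, so groups share no replicate numbers. The pooled count of 0 stayed at 0 in all 41 fits that left out an animal and under each alternative listed in the methods; with the muscle covariate, chosen after seeing the data, it was 1. Bmal1 ran from -0.27 to -0.22, Npas2 from -0.37 to -0.23 and Per2 from 0.06 (its other probe set) to 0.34 over these fits, while the sign of Srxn1 depended on the fit and that of Egr2 turned only with its other probe set, at -0.0035. The count of intervals within 1.5-fold was 30755 to 30791 without single animals, and 15336 when only probe sets above the median signal were kept, which leaves fewer probe sets to test. At 5 days the count was 0 to 25 without single animals, and 0 after quantile normalization, with the signal filter, with the spread from 41 arrays and with the muscle covariate. At 24 h it was 0 to 49 without single animals, 116 with array weights and 1 with the spread from 41 arrays. At 8 days it was 0 to 1, 56 and 1 in the same order, and at 6 h and 19 days it was 0 without single animals. The interaction with time gave 0 to 2 and, with array weights, 1, and repeated minus single exposure 0. For 6 ppm minus 0.7 ppm the count ran from 798 to 1334 and was 1742 with array weights. For 2 ppm minus 0.7 ppm it ran from 2 to 32, and was 6 after cyclic loess and with the intensity trend, 52 with the signal filter and 95 with array weights. The median at 0.7 ppm of genes higher at 15 ppm ran from -0.0371 to -0.0081 without single animals, and was 0.0145 with the later air arrays added; that of genes lower at 15 ppm ran from -0.0842 to -0.0159. The cause of these shifts was not tested.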

Other observations

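In animals that breathed air, the clock output Tef averaged 7.24 ± 0.19 (SD, n = 4) at 24 h and 7.79 to 8.06 in the air groups of the first array set at the other times. Npas2 averaged 7.65 ± 0.24 (SD, n = 4) in air animals at 24 h and 6.35 ± 0.12 (SD, n = 4) at 19 days.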
